A study of Mus musculus with 209 samples.

Results

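Epiblast from mouse embryos kept in culture was compared with epiblast taken at embryonic day 6.5. The cultured group is labelled IVC, read here as in vitro culture, and the other E6.5 ND; what ND stands for is not stated. Each group held 2 RNA-seq libraries, replicates 1 and 2, so 4 of the 209 samples of the series entered the comparison; the rest are other RNA-seq, methylation and hydroxymethylation samples of mouse oocytes, embryos, germ cells, embryonic stem cells and neuron nuclei. All 4 libraries came from wild-type embryos of a C57BL/6 mother and a C57BL/6 father and are labelled as polyA RNA. The labels give no embryonic day for the IVC samples, no length of culture, no number of embryos in a sample and no statement that replicates came from separate embryos or cultures. The p-values below therefore measure only the spread between these libraries, which may be technical. The groups were chosen by their labels and not by any measured value.

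The epiblast is the pluripotent layer of the embryo from which all tissues of the fetus arise. Around implantation it leaves the naive state, in which Klf, Esrrb and Tfcp2l1 factors are active, and enters a formative and then primed state marked by Fgf5, Otx2 and Dnmt3b, while Nodal, Wnt and BMP signals from neighbouring layers place the primitive streak. It is enclosed by visceral endoderm, which secretes apolipoproteins and carriers such as transthyretin, and is connected to trophoblast, whose giant cells secrete hormones of the prolactin family. An embryo in a dish attaches to plastic or matrix in place of the uterus, and its outer trophoblast and its endoderm grow beside the epiblast.

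The groups differed in more than their labels. The IVC libraries held 10366657 and 10228982 gene counts, and the E6.5 libraries held 8722429 and 18436489, with the ribosomal RNA precursor Rn45s left out. Rn45s took 0.101% and 0.121% of all counts in IVC epiblast, against 26.2% and 23.3% in E6.5 epiblast. A count was seen for 8379 and 8989 genes in IVC epiblast and for 13100 and 13697 genes in E6.5 epiblast, although the shallowest library was one of E6.5 epiblast. The IVC replicates were also less alike: of genes at 10 CPM or more in a library (counts scaled to a gene total of 1000000), 27.3% of 7365 were at 0 or over 10-fold apart in the other IVC library, against 0.351% of 9110 in the E6.5 pair. The Pearson correlation of log2(CPM + 1) across genes, which are not independent replicates, was 0.840 within IVC epiblast, 0.969 within E6.5 epiblast and 0.701 to 0.732 between the groups. The groups were also counted in separate deposited tables, so culture, library and table cannot be told apart in any difference below.

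Across the transcriptome, IVC epiblast carried more RNA for placental hormones, ribosomal proteins and the respiratory chain, and less for replication-dependent histones, glycolytic enzymes, basement membrane proteins and several regulators of the E6.5 epiblast. Of 11677 genes tested, 1360 rose in IVC epiblast and 2784 fell, which is 11.6% and 23.8% (edgeR quasi-likelihood test, adjusted p under 0.05). Counts in each gene list from this fit are read beside these shares. Both IVC libraries lay below both E6.5 libraries for 59.1% of the genes tested and above them for 18.7%. Fold changes are log2 of IVC over E6.5 after TMM scaling, and their median over all genes tested was -0.92. The value after ± is a standard error worked back from the test, as the size of the fold change over the root of its F statistic. With library totals alone in place of TMM the fold changes lie lower and the median is -1.55, a shift of -0.63, with 1030 genes higher and 3259 lower. Of the 2784 genes that fell, 1970 had no count in either IVC library. For such genes a lower bound of the fold is given, set by 3 counts over the group, and it covers counting error only. Bounds use gene totals without TMM scaling. The TMM factors were 0.793 and 0.813 for the IVC and 1.27 and 1.22 for the E6.5 libraries. On the TMM scale the bounds of lower genes would be smaller, and those of higher genes larger. A gene at 0 in 1 group passed the filter on low counts through the other group alone, so counts over a list's tested members describe those members and not the whole list. A zero in 1 IVC library was not always a low gene, since 1180 genes at 0 in IVC replicate 1 had 50 counts or more in IVC replicate 2, and 759 the other way round.

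**Figure D1:**
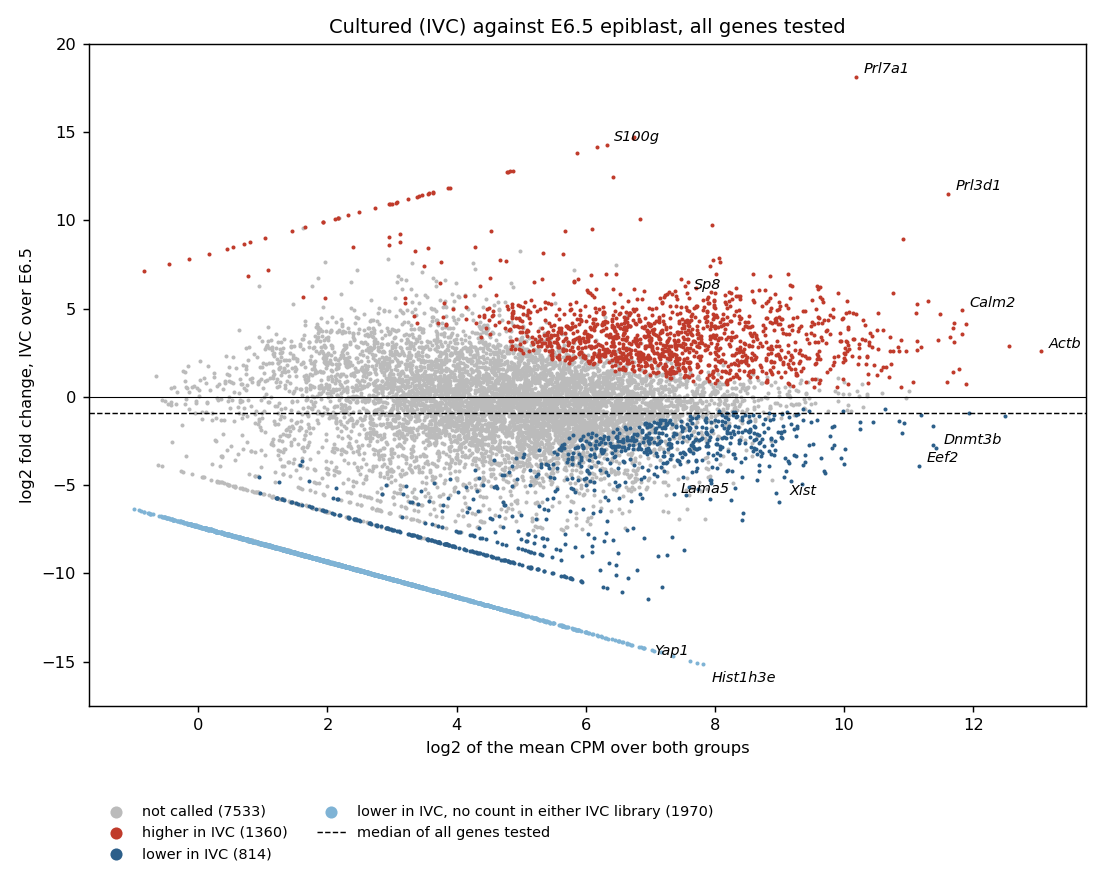
Log2 fold change of IVC over E6.5 epiblast against the log2 mean CPM of both groups, 1 point a gene for the 11677 genes tested. The 1970 genes called lower with no count in either IVC library lie along the straight lower edge. Prl7a1 and Prl3d1 stand apart at the top right, and the dashed line is the median of -0.92.

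Many calls depend on having both E6.5 libraries. Lower calls also dropped to 624 with no filter on low counts and to 473 with the replicate number as a block. With 1 E6.5 library left out the spread comes from the IVC pair alone, and far fewer genes pass. With 1 IVC library left out the spread comes from the E6.5 pair alone, and more genes pass. Without E6.5 replicate 1, 607 genes were higher and 121 lower, and without E6.5 replicate 2, 643 and 115. Without IVC replicate 1, 2759 were higher and 5185 lower, and without IVC replicate 2, 2741 and 5668. In total 591 of the 1360 higher and 95 of the 2784 lower genes were called in all 4 of these fits. In the order given, the 4 fits tested 12838, 12355, 13238 and 13172 genes. Counts of list members called in these fits are read beside those over all genes in the same fit, and not as results about a list. Genes called in all 4 fits are named at the end of each group of genes, beside the highest adjusted p that the other called genes had without 1 E6.5 library.

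RNA of pluripotency genes was present in both groups, as the label epiblast implies. All 9 epiblast markers checked had counts in all 4 libraries, summing to 2047 and 2321 CPM in IVC epiblast, against 6630 and 7391 CPM in E6.5 epiblast, of which Dnmt3b alone made most of the gap. Pou5f1, the POU factor at the centre of pluripotency, had 448 and 479 CPM in IVC epiblast, against 618 and 696 CPM in E6.5 epiblast, a log2 fold change of 0.13 ± 0.17 (adjusted p = 0.638). Its groups did not overlap on the CPM scale, with IVC lower, and the sign turns positive through the TMM scaling. Sox2, its partner, had 22.3 and 28.6 CPM in IVC epiblast, against 39.1 and 87.5 CPM in E6.5 epiblast (-0.70 ± 0.72), and Nanog had 54.7 and 32.8 CPM in IVC epiblast, against 102 and 105 CPM in E6.5 epiblast (-0.61 ± 0.50); neither passed the test. Sall4, a zinc finger factor of the same network, had 291 to 402 CPM in IVC epiblast, against 643 to 867 CPM in E6.5 epiblast (-0.49 ± 0.29), also short of the threshold. Of the core pluripotency list, 1 of 12 tested members rose and 2 fell, with a median log2 fold change of -0.28, against 11.6% and 23.8% of all genes. The riser was Tdgf1, the Nodal co-receptor Cripto, with 423 and 714 CPM in IVC epiblast, against 314 and 232 CPM in E6.5 epiblast (1.69 ± 0.34, adjusted p = 0.0398). Lin28a, which binds RNA and blocks let-7 maturation, fell: it had 74.9 and 89.3 CPM in IVC epiblast, against 1225 and 1291 CPM in E6.5 epiblast (-3.31 ± 0.19, adjusted p = 0.00527). The IVC libraries agreed closely on this low level. Utf1, a chromatin protein of pluripotent cells, showed how the IVC pair can part, with 1.64 and 41.5 CPM in IVC epiblast, against 209 and 230.2 CPM in E6.5 epiblast, and did not pass the test. Dnmt3b and Lin28a passed in each fit with 1 library left out; the highest adjusted p of the others named was 0.145 without 1 E6.5 library. With library totals alone, no call was made for Tdgf1. Conversely, Sall4 passed as lower under that scaling.

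Several naive genes were at 0 in IVC epiblast. Of 12 tested, 1 rose and 5 fell, the median was -3.29, and all 5 that fell had no count in either IVC library. They were Klf2, Fgf4, Tfcp2l1, Esrrb and Nr0b1. Klf2, a Kruppel-like factor, had no count in IVC epiblast, against 16.2 and 26.4 CPM in E6.5 epiblast, at least 159-fold lower, and Fgf4, the ligand the epiblast sends to its neighbours, had no count in IVC epiblast, against 21.4 and 16.3 CPM in E6.5 epiblast, at least 123-fold lower. Tfcp2l1 was at least 61.4-fold, Esrrb at least 28.3-fold and Nr0b1 at least 20.98-fold lower, all from E6.5 levels under 16 CPM. Dppa5a, an RNA-binding protein of pluripotent and germ cells, went the other way with 361 and 400.3 CPM in IVC epiblast, against 41.04 and 53.9 CPM in E6.5 epiblast, and rose (3.63 ± 0.28, adjusted p = 0.00824). Lower naive genes numbered 0 without E6.5 replicate 1, 0 without E6.5 replicate 2, 7 without IVC replicate 1 and 5 without IVC replicate 2. Dppa5a also passed whichever library was left out; the highest adjusted p of the others named was 0.606 without 1 E6.5 library.

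Among formative and primed genes none of 14 tested rose and 4 fell, which is 28.6% beside 23.8% of all genes, and the median of -1.07 lay near the -0.92 of all genes. Dnmt3b, the de novo DNA methyltransferase of this stage and the third most abundant gene of E6.5 epiblast, had 479.8 and 397 CPM in IVC epiblast, against 4757 and 5361 CPM in E6.5 epiblast, and fell (-2.90 ± 0.18, adjusted p = 0.00596). Dnmt3a, its relative, had 294 to 354 CPM in IVC epiblast, against 622 to 677 CPM in E6.5 epiblast, and did not pass the test (-0.37 ± 0.20). Tead2, a DNA-binding partner of the Yap co-activator, had 23.1 and 37.9 CPM in IVC epiblast, against 319 and 396 CPM in E6.5 epiblast, and fell (-2.93 ± 0.40). Sox3, a SoxB1 factor, had no count in IVC epiblast, against 45.6 and 54.1 CPM in E6.5 epiblast, and was at least 353-fold lower, and Etv4, an ETS factor downstream of FGF signalling, was at least 220-fold lower. Fgf5, the secreted marker of this state, overlapped between the groups with 146 and 57.6 CPM in IVC epiblast, against 132 and 147 CPM in E6.5 epiblast. Otx2 had 26.1 and 78.4 CPM in IVC epiblast, against 128 and 194 CPM in E6.5 epiblast (-1.004 ± 0.68) and Pou3f1 had 13.9 to 33.8 CPM in IVC epiblast, against 134 to 192 CPM in E6.5 epiblast (-2.13 ± 0.64), both with IVC below E6.5 but short of the threshold. Zic2, another factor of the primed state, had 294 to 655 CPM in IVC epiblast, against 257 to 332 CPM in E6.5 epiblast, and overlapped. Lower genes of this list numbered 1 without E6.5 replicate 1, 1 without E6.5 replicate 2, 7 without IVC replicate 1 and 8 without IVC replicate 2. Dnmt3b kept the call in all 4 fits with 1 library fewer; the highest adjusted p of the others named was 0.606 without 1 E6.5 library. Under library totals alone Dnmt3a and Pou3f1 also passed as lower.

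**Figure D2:**
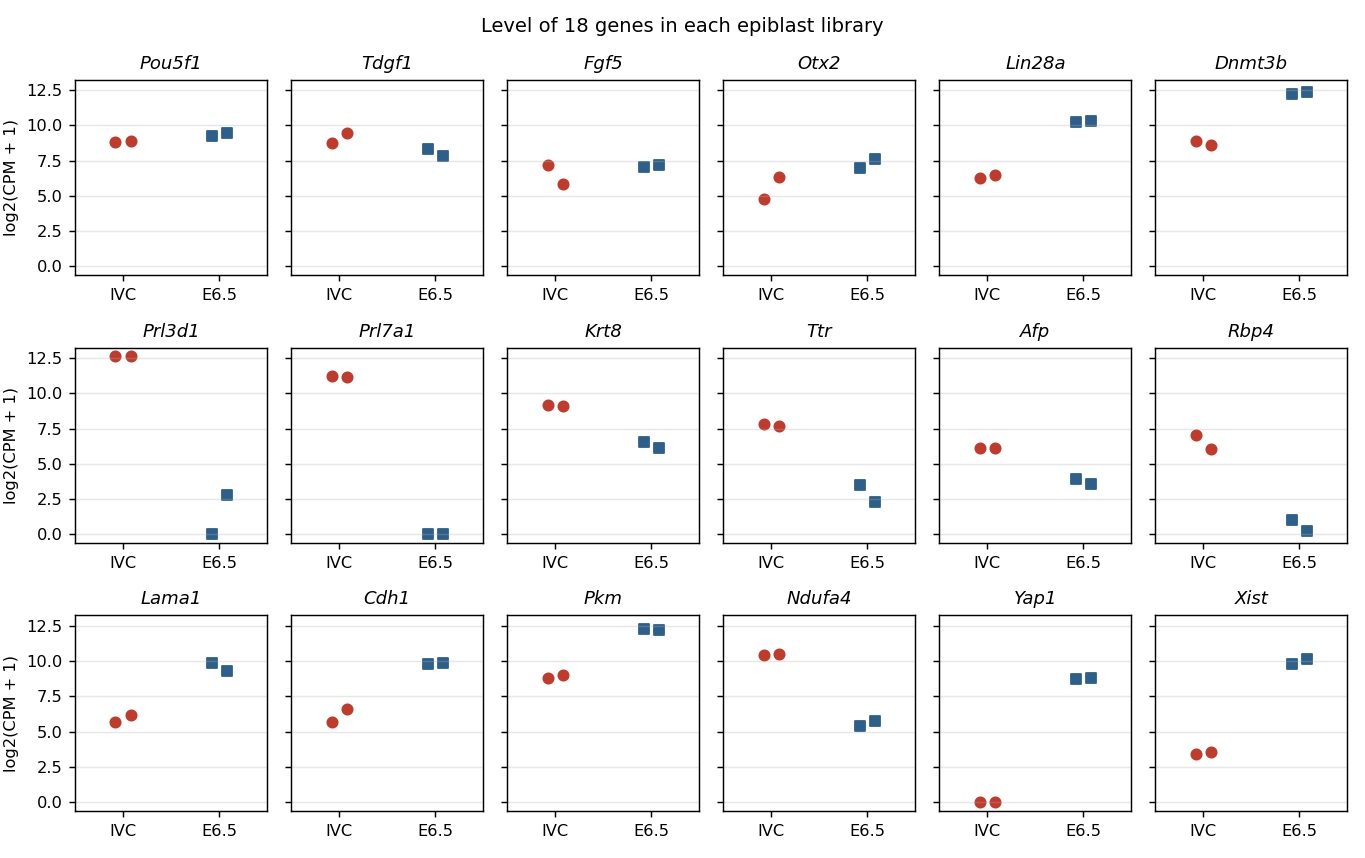
Level of 18 genes as log2(CPM + 1), 1 point a library, with IVC left of E6.5 in each panel. Fgf5 overlaps between the groups, Prl3d1, Prl7a1, Krt8, Ttr, Afp, Rbp4 and Ndufa4 lie higher in IVC epiblast, and Lin28a, Dnmt3b, Lama1, Cdh1, Pkm, Yap1 and Xist lie lower.

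In each of 4 signalling pathways that pattern the epiblast, more members fell than rose, as over all genes. In the Nodal pathway 2 of 17 tested genes rose and 5 fell, with a median of -1.86. Nodal itself had 0.0965 to 17.7 CPM in IVC epiblast, against 38.8 to 51.4 CPM in E6.5 epiblast (-1.73 ± 2.14), so that 1 IVC library nearly lacked it, and it did not pass the test. Acvr2b, a type II receptor for Nodal, fell with 61.7 and 28.5 CPM in IVC epiblast, against 509 and 508 CPM in E6.5 epiblast (-2.86 ± 0.48). Foxh1, the DNA-binding partner of Smad2, was at least 392-fold lower with no count in IVC epiblast, against 48.3 and 61.2 CPM in E6.5 epiblast, the type I receptor Acvr1b was at least 298-fold lower, and Pcsk6, a convertase that cleaves the Nodal precursor, was at least 167-fold lower. Gdf3, a ligand of the same family, had 3 counts in IVC epiblast and 197 in E6.5 epiblast. Skil, which encodes SnoN, a repressor of Smad activity and itself a target of the pathway, rose with 1402 and 966 CPM in IVC epiblast, against 369 and 369.8 CPM in E6.5 epiblast (2.32 ± 0.25, adjusted p = 0.0157). Lower Nodal pathway genes numbered 0 without E6.5 replicate 1, 0 without E6.5 replicate 2, 10 without IVC replicate 1 and 14 without IVC replicate 2. Skil held with any 1 of the 4 libraries left out; the highest adjusted p of the others named was 0.759 without 1 E6.5 library. The test passed Smad2 as lower when scaled by library totals alone.

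In the BMP pathway 2 of 16 genes rose and 3 fell. The risers were Id2, with 196 and 150.1 CPM in IVC epiblast, against 60.9 and 41.2 CPM in E6.5 epiblast (2.40 ± 0.38), and Id3, with 174 and 162 CPM in IVC epiblast, against 110.1 and 96.3 CPM in E6.5 epiblast (1.34 ± 0.27), both inhibitors of basic helix-loop-helix factors and targets of BMP signalling. Id1, another such target, overlapped between the groups with 52.8 to 78.1 CPM in IVC epiblast, against 72.2 to 72.5 CPM in E6.5 epiblast. Bmp7, a ligand, Msx1, a homeobox target, and Id4 had no count in IVC epiblast and E6.5 levels under 12 CPM. Higher BMP pathway genes numbered 0 without E6.5 replicate 1, 0 without E6.5 replicate 2, 3 without IVC replicate 1 and 3 without IVC replicate 2, and lower ones 0 without E6.5 replicate 1, 0 without E6.5 replicate 2, 7 without IVC replicate 1 and 8 without IVC replicate 2. No called gene named here held in all 4 such fits; the highest adjusted p was 0.606 without 1 E6.5 library. The call was lost with library totals alone for Id3.

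Of 21 Wnt pathway genes 2 rose and 7 fell, with a median of -2.19. Sp8, a zinc finger factor that acts with Wnt signals in the embryo, had 397 and 339 CPM in IVC epiblast, against 4.70 and 14.2 CPM in E6.5 epiblast, and rose (5.89 ± 0.75, adjusted p = 0.0221). Lgr4, a receptor for R-spondins, rose with 791 to 1105 CPM in IVC epiblast, against 105 to 133 CPM in E6.5 epiblast (3.62 ± 0.30, adjusted p = 0.00943). Ctnnb1, which encodes beta-catenin, fell with 87.8 to 165 CPM in IVC epiblast, against 1265 to 1299.5 CPM in E6.5 epiblast (-2.70 ± 0.39), and the co-receptor Lrp6 fell with 6.46 and 6.65 CPM in IVC epiblast, against 256 and 211 CPM in E6.5 epiblast (-4.52 ± 0.39). The receptor Fzd5 fell as well (-2.98 ± 0.65). The ligand Wnt2b and the antagonists Dkk1 and Nkd1 had no count in IVC epiblast, while the ligand Wnt3 overlapped between the groups with 8.68 to 16.1 CPM in IVC epiblast, against 15.8 to 22.1 CPM in E6.5 epiblast. Axin2, a common readout of the pathway, had 1.08 to 26.4 CPM in IVC epiblast, against 42.6 to 57.6 CPM in E6.5 epiblast, and did not pass the test. Lower Wnt pathway genes numbered 1 without E6.5 replicate 1, 1 without E6.5 replicate 2, 13 without IVC replicate 1 and 13 without IVC replicate 2. Sp8, Lgr4 and Ctnnb1 also passed whichever library was left out; the highest adjusted p of the others named was 0.606 without 1 E6.5 library.

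The FGF and ERK list had 1 of 17 genes higher and 5 lower, with a median of -2.74. Spry2, a feedback inhibitor of receptor tyrosine kinases, rose with 1156 and 752 CPM in IVC epiblast, against 81.1 and 122 CPM in E6.5 epiblast (3.86 ± 0.40, adjusted p = 0.0146). Its relative Spry1 fell, with 0.289 and 0.293 CPM in IVC epiblast, against 42.9 and 29.5 CPM in E6.5 epiblast (-6.28 ± 1.14). Dusp4, a phosphatase of MAP kinases, had no count in IVC epiblast, against 47.6 and 54.8 CPM in E6.5 epiblast, and was at least 360-fold lower, and Dusp6, another, had 14.5 to 32.1 CPM in IVC epiblast, against 132 to 169 CPM in E6.5 epiblast, without passing the test (-2.05 ± 0.60). Fgf8 had 0.193 to 18.7 CPM in IVC epiblast, against 49.2 to 57.9 CPM in E6.5 epiblast, and Fgfr1, the main receptor of the epiblast, had 37.6 to 79.1 CPM in IVC epiblast, against 137 to 189 CPM in E6.5 epiblast; neither passed. Lower genes of the list numbered 0 without E6.5 replicate 1, 1 without E6.5 replicate 2, 10 without IVC replicate 1 and 14 without IVC replicate 2. Spry2 kept the call in all 4 fits with 1 library fewer; the highest adjusted p of the others named was 0.606 without 1 E6.5 library. Under library totals alone Dusp6 also passed as lower.

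Most primitive streak genes were near 0 in 1 or both IVC libraries. None of 12 tested rose and 4 fell, namely Lhx1, Snai1, Mesp1 and Gsc, all without a count in IVC epiblast. Lhx1, a LIM homeobox factor, had no count in IVC epiblast, against 29.2 and 10.3 CPM in E6.5 epiblast, and was at least 112-fold lower, and Mesp1, the factor of nascent mesoderm, had no count in IVC epiblast, against 9.40 and 12.9 CPM in E6.5 epiblast, and was at least 80.9-fold lower. T, which encodes Brachyury, had 0 and 1.37 CPM in IVC epiblast, against 41.4 and 26.1 CPM in E6.5 epiblast, and did not pass the test. Eomes had 0.293 to 62.03 CPM in IVC epiblast, against 202 to 231 CPM in E6.5 epiblast, and Mixl1 had 0.579 and 35.98 CPM in IVC epiblast, against 39.8 and 27.6 CPM in E6.5 epiblast, so the 2 genes were each seen in a different IVC library. The mesoderm markers checked summed to 0.579 and 55.8 CPM in IVC epiblast, against 119 and 99.2 CPM in E6.5 epiblast. Lower streak genes numbered 0 without E6.5 replicate 1, 0 without E6.5 replicate 2, 6 without IVC replicate 1 and 10 without IVC replicate 2. Of 10 anterior neural plate genes 2 were tested, Pax6 and Rax, and both were lower from E6.5 levels under 5 CPM. No gene of the Hox clusters was abundant enough to test. None of the called genes named held in all 4 such fits, and the highest adjusted p was 0.606 without 1 E6.5 library.

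Cdh1, which encodes E-cadherin, fell with 49.7 and 94.5 CPM in IVC epiblast, against 879 and 932 CPM in E6.5 epiblast (-3.02 ± 0.39, adjusted p = 0.0224), whereas Epcam, another epithelial adhesion molecule, rose with 445 and 492 CPM in IVC epiblast, against 331 and 338 CPM in E6.5 epiblast (1.12 ± 0.17). Of 15 junction and polarity genes 1 rose and 5 fell, and Podxl, the apical sialomucin of the lumen (-3.57 ± 0.51), the membrane linker Ezr (-1.77 ± 0.32) and Cldn6 (-1.33 ± 0.32) were among those that fell. The claudin Cldn4 had 22.9 to 57.5 CPM in IVC epiblast, against 21.1 to 21.9 CPM in E6.5 epiblast, and Cldn7 had 43.5 to 93.4 CPM in IVC epiblast, against 40.4 to 77.3 CPM in E6.5 epiblast; neither passed. Snai1 and Cdh2, the repressor and the cadherin of epithelial-mesenchymal transition, were the 2 of 4 tested members of that list that fell; Cdh2 had 0.193 and 0.489 CPM in IVC epiblast, against 21.1 and 21.8 CPM in E6.5 epiblast. Lower junction genes numbered 1 without E6.5 replicate 1, 1 without E6.5 replicate 2, 6 without IVC replicate 1 and 9 without IVC replicate 2, and higher ones 0 without E6.5 replicate 1, 0 without E6.5 replicate 2, 4 without IVC replicate 1 and 3 without IVC replicate 2. Cdh1 passed in each fit with 1 library left out; the highest adjusted p of the others named was 0.697 without 1 E6.5 library. Scaled by library totals alone, the test did not call Epcam.

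Of 16 basement membrane and parietal endoderm genes none rose and 7 fell, with a median of -2.47. Lama1, the laminin chain of the embryonic basement membrane, had 49.2 and 71.5 CPM in IVC epiblast, against 929 and 617 CPM in E6.5 epiblast, and fell (-3.04 ± 0.33, adjusted p = 0.0165). Lama5, another laminin alpha chain, had 6.46 and 6.94 CPM in IVC epiblast, against 608 and 601 CPM in E6.5 epiblast, and fell (-5.86 ± 0.24, adjusted p = 0.00472). Their partner chains Lamb1 (-1.54 ± 0.23) and Lamc1 (-2.20 ± 0.35), the type IV collagens Col4a1 (-2.51 ± 0.38) and Col4a2 (-2.44 ± 0.29) and the linker Nid2 (-2.75 ± 0.61) fell too. Sparc, a collagen-binding protein abundant in parietal endoderm, overlapped between the groups with 339 and 319 CPM in IVC epiblast, against 455 and 261 CPM in E6.5 epiblast. Fn1, which encodes fibronectin, had 0 to 3.57 CPM in IVC epiblast, against 332 to 361 CPM in E6.5 epiblast, and missed the threshold (adjusted p = 0.0664). The list summed to 1127 and 1214 CPM in IVC epiblast, against 7809.9 and 5610.3 CPM in E6.5 epiblast. Lower genes of the list numbered 2 without E6.5 replicate 1, 4 without E6.5 replicate 2, 13 without IVC replicate 1 and 13 without IVC replicate 2. Lama1 and Lama5 also passed whichever library was left out; the highest adjusted p of the others named was 0.511 without 1 E6.5 library.

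The highest fold changes belonged to hormones of the placenta. Of 39 genes of the prolactin and pregnancy-specific glycoprotein families, 9 were abundant enough to test and all 9 rose; each passed that filter through the IVC libraries, since E6.5 epiblast held little or none. The 39 genes summed to 9981 and 9942 CPM in IVC epiblast, against 0 and 8.14 CPM in E6.5 epiblast. Prl3d1, placental lactogen I, had 6261 and 6267 CPM in IVC epiblast, against 0 and 6.02 CPM in E6.5 epiblast, and was the sixth most abundant gene of IVC epiblast by mean CPM (11.52 ± 2.00, adjusted p = 0.0398). Both IVC libraries held nearly the same level, and E6.5 replicate 2 held a trace that E6.5 replicate 1 did not. Prl7a1, another prolactin family hormone, had 2441 and 2225 CPM in IVC epiblast, against no count in E6.5 epiblast, at least 21123-fold higher. Prl3d2 had 409 to 584 CPM in IVC epiblast, against 0 to 1.52 CPM in E6.5 epiblast (9.77 ± 1.58) and Prl3d3 196 to 263 CPM in IVC epiblast, against 0 to 0.542 CPM in E6.5 epiblast (10.06 ± 1.40); these are near-identical copies of Prl3d1, so how reads were split among the 3 is uncertain. Prl2a1 was at least 1955-fold, Psg29 at least 1913-fold, Prl5a1 at least 1053-fold, Prl4a1 at least 527-fold and Psg22 at least 263-fold higher. Other well known members of the families, Prl3b1, Prl2c2 and Psg17, had no count in IVC epiblast. Higher genes of these families numbered 7 without E6.5 replicate 1, 7 without E6.5 replicate 2, 9 without IVC replicate 1 and 10 without IVC replicate 2. Prl3d1, Prl7a1, Prl3d2, Prl3d3, Prl2a1, Psg29 and Prl5a1 kept the call in all 4 fits with 1 library fewer; the highest adjusted p of the others named was 0.406 without 1 E6.5 library.

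The promoters of Prl3d1 and Prl7a1 are shown because these were the hormones with the highest levels in IVC epiblast. Each run covers 250 bases before to 50 after the gene start in RefSeq (GRCm38.p6), 5′ to 3′ on the gene's strand, chr13:27093939-27094238 on the plus strand for Prl3d1 and chr13:27642444-27642743 on the minus strand for Prl7a1. Capitals mark matches, on either strand, to the AP-1 letters TGANTCA and to the GATA-type letters GATAA or GATAG after an A or a T, which do not overlap each other here. AP-1 and GATA factors are known to act on placental lactogen genes in mouse trophoblast, and both motifs were chosen after the values were seen.
Prl3d1: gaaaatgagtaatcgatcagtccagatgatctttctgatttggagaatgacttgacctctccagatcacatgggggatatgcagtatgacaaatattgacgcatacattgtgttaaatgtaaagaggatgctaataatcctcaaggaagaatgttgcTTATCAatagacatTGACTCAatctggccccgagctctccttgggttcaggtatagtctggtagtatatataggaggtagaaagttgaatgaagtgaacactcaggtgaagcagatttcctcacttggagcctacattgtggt
Prl7a1: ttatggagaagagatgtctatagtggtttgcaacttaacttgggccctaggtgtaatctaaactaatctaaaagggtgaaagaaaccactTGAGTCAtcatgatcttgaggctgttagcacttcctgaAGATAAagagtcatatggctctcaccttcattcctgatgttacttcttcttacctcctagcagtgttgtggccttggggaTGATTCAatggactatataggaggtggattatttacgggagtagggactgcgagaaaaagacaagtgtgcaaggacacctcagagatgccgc
Prl3d1 held 1 match of each kind, and Prl7a1 held 2 AP-1 matches and 1 GATA-type match. Of 32851 promoters of this length in the table, 7.81% held the AP-1 letters and 29.8% the GATA-type letters. A match describes the letters only and does not show that a factor binds there.

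Other trophoblast genes did not move as a block. Of 13 extraembryonic ectoderm and trophoblast genes tested 3 rose and 1 fell, with a median of -1.20. Krt8 had 575 and 549 CPM in IVC epiblast, against 91.6 and 69.8 CPM in E6.5 epiblast, and rose (3.44 ± 0.23, adjusted p = 0.00647), and its partner keratin Krt18 rose with 256 and 233 CPM in IVC epiblast, against 82.1 and 122 CPM in E6.5 epiblast (1.88 ± 0.33); both are made by trophoblast and other simple epithelia. Gata3, a trophoblast factor, rose from low levels with 16.1 and 37.6 CPM in IVC epiblast, against 0.459 and 1.52 CPM in E6.5 epiblast (5.34 ± 1.35). Ascl2 fell, and the extraembryonic ectoderm markers Cdx2 and Esx1 had no count in IVC epiblast and few in E6.5 epiblast. The 8 extraembryonic ectoderm markers summed to 0 and 15.7 CPM in IVC epiblast, against 12.7 and 31.0 CPM in E6.5 epiblast. The 7 giant cell and spongiotrophoblast markers summed to 6316 and 6436 CPM in IVC epiblast, against 0 and 8.30 CPM in E6.5 epiblast, but Prl3d1 made nearly all of it and 5 of the 7 were at 0 in each IVC library. In bulk samples a change in the number of cells of a type and a change in RNA per cell cannot be told apart, and which cells carried these hormones was not tested. Higher genes of the trophoblast list numbered 1 without E6.5 replicate 1, 1 without E6.5 replicate 2, 5 without IVC replicate 1 and 3 without IVC replicate 2. Krt8 and Prl3d1 held with any 1 of the 4 libraries left out; the highest adjusted p of the others named was 0.606 without 1 E6.5 library. Library totals alone ended the call of Krt18 and Gata3.

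Several secreted products of the visceral endoderm rose in IVC epiblast. Of 22 visceral endoderm genes tested 6 rose and 3 fell, with a median of 1.45 against -0.92 for all genes. Ttr, which encodes transthyretin, had 229 and 201 CPM in IVC epiblast, against 10.3 and 3.91 CPM in E6.5 epiblast, and rose (5.57 ± 0.66, adjusted p = 0.0191). Rbp4, the retinol carrier, had 134 and 65.7 CPM in IVC epiblast, against 1.03 and 0.163 CPM in E6.5 epiblast (8.08 ± 1.34), and Afp, alpha-fetoprotein, had 67.9 and 67.7 CPM in IVC epiblast, against 14.1 and 11.01 CPM in E6.5 epiblast (3.07 ± 0.58). The apolipoproteins Apoa1 (3.74 ± 0.94) and Apoa2 (5.72 ± 1.32) rose as well, and S100g, a calcium-binding protein, had 103 and 217 CPM in IVC epiblast, against no count in E6.5 epiblast, and was at least 1444-fold higher. Lrp2, the endocytic receptor megalin, fell with 147 to 151 CPM in IVC epiblast, against 450.5 to 491 CPM in E6.5 epiblast (-1.03 ± 0.19), and its partner Cubn had 4.44 and 16.1 CPM in IVC epiblast, against 86.1 and 96.9 CPM in E6.5 epiblast, without passing the test. Apob, the largest apolipoprotein, had 30.6 and 39.9 CPM in IVC epiblast, against 91.8 and 111 CPM in E6.5 epiblast, and Gata4 had 12.4 and 0.391 CPM in IVC epiblast, against 45.9 and 30.6 CPM in E6.5 epiblast, and neither passed. Cer1 and Foxa1, a Nodal antagonist and a forkhead factor, fell from E6.5 levels under 7 CPM. The 10 visceral endoderm markers summed to 587 and 622 CPM in IVC epiblast, against 301 and 305 CPM in E6.5 epiblast, with 4 of them higher and none lower. Their part in the other differences was not tested. Higher visceral endoderm genes numbered 3 without E6.5 replicate 1, 2 without E6.5 replicate 2, 11 without IVC replicate 1 and 8 without IVC replicate 2. Ttr and S100g passed in each fit with 1 library left out; the highest adjusted p of the others named was 0.606 without 1 E6.5 library. With library totals alone, no call was made for Apoa1.

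Blood and decidua markers were scarce in both groups. The 7 blood markers had no count in IVC epiblast and up to 0.868 CPM in E6.5 epiblast. The 5 decidua and fibroblast markers summed to 5.59 and 8.80 CPM in IVC epiblast, against 33.7 and 24.1 CPM in E6.5 epiblast. The 5 parietal endoderm markers summed to 560 and 556 CPM in IVC epiblast, against 2565 and 1522 CPM in E6.5 epiblast, mostly from Lama1, Col4a1 and Sparc. The 6 primordial germ cell markers summed to 0.0965 and 18.4 CPM in IVC epiblast, against 1.83 and 21.5 CPM in E6.5 epiblast.

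Of 21 genes that write, read or erase DNA methylation 1 rose and 7 fell, or 4.76% and 33.3%, beside 11.6% and 23.8% of all genes tested, and the median was -1.86. Dnmt1, the maintenance methyltransferase, had 30.6 and 37.4 CPM in IVC epiblast, against 524 and 494 CPM in E6.5 epiblast, and fell (-3.27 ± 0.24, adjusted p = 0.0079), and Uhrf1, which brings it to replicated DNA, had 76.5 to 133 CPM in IVC epiblast, against 608 to 743 CPM in E6.5 epiblast, and fell (-2.05 ± 0.38). Tet1, the dioxygenase that makes 5-hydroxymethylcytosine in the epiblast, fell with 35.7 and 44.1 CPM in IVC epiblast, against 446 and 405 CPM in E6.5 epiblast (-2.78 ± 0.26, adjusted p = 0.0118). Tet3 had 0 to 2.74 CPM in IVC epiblast, against 80.9 to 126 CPM in E6.5 epiblast, and Tet2 had 0.196 to 10.997 CPM in IVC epiblast, against 6.78 to 15.8 CPM in E6.5 epiblast, without passing the test. Trim28, the KAP1 corepressor that protects imprints, fell with 47.9 and 131 CPM in IVC epiblast, against 1946 and 1959 CPM in E6.5 epiblast (-3.83 ± 0.57). Dnmt3l, the cofactor of the de novo enzymes, had no count in IVC epiblast, against 9.40 and 13.2 CPM in E6.5 epiblast, and was at least 82.4-fold lower, and Mbd1, a reader, was at least 163-fold lower. Apex1, a base excision repair endonuclease, was the gene that rose, with 277 to 307 CPM in IVC epiblast, against 195 to 218 CPM in E6.5 epiblast (1.13 ± 0.21). Hells, a chromatin remodeller needed for DNA methylation, had 473 to 477 CPM in IVC epiblast, against 390.3 to 528 CPM in E6.5 epiblast, and did not pass. Lower genes of the list numbered 3 without E6.5 replicate 1, 3 without E6.5 replicate 2, 14 without IVC replicate 1 and 12 without IVC replicate 2. Dnmt1 and Trim28 also passed whichever library was left out; the highest adjusted p of the others named was 0.606 without 1 E6.5 library. The call was lost with library totals alone for Apex1.

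Germline genes that DNA methylation keeps silent were mostly without counts in IVC epiblast. Of 12 tested 1 rose and 6 fell, with a median of -7.13, and 7 of the 12 had no count in either IVC library. Those 7 passed the filter on low counts through E6.5 epiblast alone. The summed level of the 27 listed genes overlapped between the groups, with 87.2 and 94.4 CPM in IVC epiblast, against 89.1 and 72.0 CPM in E6.5 epiblast. Ddx4, the germ cell helicase, had no count in IVC epiblast, against 11.8 and 8.73 CPM in E6.5 epiblast, and was at least 66.7-fold lower, Stag3, a meiotic cohesin, at least 60.2-fold, and Piwil2 at least 38.7-fold lower. Syce1, of the synaptonemal complex, rose with 7.91 and 9.48 CPM in IVC epiblast, against no count in E6.5 epiblast, at least 78.7-fold higher. Among 4 tested primordial germ cell genes Ifitm1 rose with 74.5 and 42.4 CPM in IVC epiblast, against 5.50 and 6.13 CPM in E6.5 epiblast (3.96 ± 0.74). Dppa3, an oocyte and germ cell protein that guards methylation in the zygote, had 0.0965 and 18.4 CPM in IVC epiblast, against 0.115 and 0.108 CPM in E6.5 epiblast, so that IVC replicate 2 alone carried it, and it did not pass the filter on low counts. Lower germline genes numbered 0 without E6.5 replicate 1, 0 without E6.5 replicate 2, 3 without IVC replicate 1 and 4 without IVC replicate 2. Every call named here was lost in 1 or more of these fits; the highest adjusted p was 0.606 without 1 E6.5 library.

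Imprinted genes, which are expressed from 1 parental allele, were called at about the share of all genes. Of 27 tested 2 rose and 6 fell, or 7.41% and 22.2%, beside 11.6% and 23.8%, with a median of -1.16. Impact had 759 and 561 CPM in IVC epiblast, against 78.6 and 53.1 CPM in E6.5 epiblast, and rose (3.97 ± 0.33, adjusted p = 0.00946), and Phlda2, which restrains placental growth, rose with 229.7 and 159 CPM in IVC epiblast, against 17.9996 and 4.72 CPM in E6.5 epiblast (4.76 ± 0.85). Grb10, an adaptor that restrains growth, fell with 55.2 to 60.5 CPM in IVC epiblast, against 417 to 435 CPM in E6.5 epiblast (-2.25 ± 0.23), as did Peg3 (-2.05 ± 0.33) and Mest (-3.26 ± 0.56). Peg13, Plagl1 and Ascl2 had no count in IVC epiblast and under 10 CPM in E6.5 epiblast. H19 had 35.98 to 46.5 CPM in IVC epiblast, against 94.2 to 130.3 CPM in E6.5 epiblast, and Rian had 394 to 672 CPM in IVC epiblast, against 504 to 607 CPM in E6.5 epiblast, without passing the test. Counts of both alleles are summed here, so nothing is said of allele use. Lower imprinted genes numbered 0 without E6.5 replicate 1, 0 without E6.5 replicate 2, 15 without IVC replicate 1 and 15 without IVC replicate 2. Impact and Phlda2 held with any 1 of the 4 libraries left out; the highest adjusted p of the others named was 0.606 without 1 E6.5 library.

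Xist, the RNA that coats the inactive X chromosome, had 9.84 and 10.9 CPM in IVC epiblast, against 874 and 1147 CPM in E6.5 epiblast, and fell (-5.98 ± 0.29, adjusted p = 0.00474). Strand-specific counting is not stated, so reads of Xist and its antisense partner Tsix cannot be told apart. Among Y-linked genes Ddx3y rose, with 273 and 145 CPM in IVC epiblast, against 71.5 and 37.05 CPM in E6.5 epiblast (2.59 ± 0.56), Uty had 22.97 to 75.4 CPM in IVC epiblast, against 15.8 to 24.1 CPM in E6.5 epiblast, Eif2s3y had 23.1 to 84.9 CPM in IVC epiblast, against 24.5 to 26.7 CPM in E6.5 epiblast, and Kdm5d had 0 to 0.289 CPM in IVC epiblast, against 27.2 to 27.3 CPM in E6.5 epiblast. Reads of Y-linked genes were thus present in all 4 libraries. The sex of the embryos in each sample is not given. Xist passed in each fit with 1 library left out; the highest adjusted p of the others named was 0.178 without 1 E6.5 library. Scaled by library totals alone, the test did not call Ddx3y.

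Energy metabolism genes moved in opposite directions. Of 75 nuclear-encoded subunits of the respiratory chain and ATP synthase 64 rose and 2 fell, with a median of 4.43, and 53 were higher in all 4 fits with 1 library left out. They summed to 42652 and 42493 CPM in IVC epiblast, against 6278 and 6617 CPM in E6.5 epiblast. Ndufa4 had 1393 to 1428 CPM in IVC epiblast, against 41.7 to 53.9 CPM in E6.5 epiblast (5.51 ± 0.24, adjusted p = 0.00472), and Ndufc1, a small subunit of complex I, had 1099.9 and 718 CPM in IVC epiblast, against 8.37 and 15.4 CPM in E6.5 epiblast (6.87 ± 0.55). Among the risers with smaller changes were Ndufa9, which had 134 to 147 CPM in IVC epiblast, against 53.8 to 61.9 CPM in E6.5 epiblast (1.91 ± 0.34), and Ndufa10 (1.83 ± 0.32). Of 22 glycolysis genes, in contrast, none rose and 12 fell, with a median of -2.08. Pkm, pyruvate kinase, had 436 and 519.5 CPM in IVC epiblast, against 4905 and 4827 CPM in E6.5 epiblast (-2.72 ± 0.13, adjusted p = 0.00474), and Gapdh had 439 and 595 CPM in IVC epiblast, against 3236 and 3331 CPM in E6.5 epiblast (-2.04 ± 0.19). Slc2a1, the glucose transporter GLUT1, fell with 89.9 to 149 CPM in IVC epiblast, against 902 to 972 CPM in E6.5 epiblast (-2.35 ± 0.31), and Gpi1, the second enzyme of the pathway, fell with 59.2 to 68.3 CPM in IVC epiblast, against 593 to 609 CPM in E6.5 epiblast (-2.60 ± 0.22). Slc16a3, the lactate exporter, fell with 2.51 and 18.6 CPM in IVC epiblast, against 487 and 472 CPM in E6.5 epiblast (-4.89 ± 1.12), while Ldha fell less, with 834 to 963 CPM in IVC epiblast, against 2197 to 2328 CPM in E6.5 epiblast (-0.70 ± 0.13). The neuronal isozymes Eno2 and Aldoc had no count in IVC epiblast, and Hk1 was at least 205-fold lower. The list summed to 3786 and 4940.0 CPM in IVC epiblast, against 19129 and 19179.8 CPM in E6.5 epiblast. Lower glycolysis genes numbered 4 without E6.5 replicate 1, 5 without E6.5 replicate 2, 19 without IVC replicate 1 and 21 without IVC replicate 2. Ndufa4, Ndufc1, Pkm, Gapdh, Slc2a1 and Gpi1 also passed whichever library was left out; the highest adjusted p of the others named was 0.606 without 1 E6.5 library. Library totals alone ended the call of Ndufa9 and Ndufa10.

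Hypoxia genes gave no common direction, with 2 of 18 higher and 3 lower. Higd1a, a small protein of the inner mitochondrial membrane, rose with 667 and 632 CPM in IVC epiblast, against 25.6 and 12.7 CPM in E6.5 epiblast (5.73 ± 0.45, adjusted p = 0.00853), and Bnip3, which marks mitochondria for removal, rose with 158 and 232 CPM in IVC epiblast, against 107 and 104 CPM in E6.5 epiblast (1.52 ± 0.31). Ak4, a mitochondrial adenylate kinase, had no count in IVC epiblast, against 124 and 99.7 CPM in E6.5 epiblast, and was at least 738-fold lower, Ndrg1 was at least 103-fold lower, and Vegfa, the endothelial growth factor, had 6.46 to 9.58 CPM in IVC epiblast, against 36.2 to 42.3 CPM in E6.5 epiblast, without passing. Sterol genes were split too, with 4 of 27 higher and 4 lower. Fdps, which makes farnesyl diphosphate, had 379.6 and 365 CPM in IVC epiblast, against 76.9 and 103 CPM in E6.5 epiblast, and rose (2.68 ± 0.27), and Insig1, a sterol sensor, rose with 543 to 812 CPM in IVC epiblast, against 240.1 to 275 CPM in E6.5 epiblast (2.03 ± 0.29). Srebf2, the factor that drives the pathway, had no count in IVC epiblast, against 211 and 266 CPM in E6.5 epiblast, and was at least 1704-fold lower. Lower sterol genes numbered 2 without E6.5 replicate 1, 2 without E6.5 replicate 2, 11 without IVC replicate 1 and 10 without IVC replicate 2, and lower hypoxia genes 0 without E6.5 replicate 1, 0 without E6.5 replicate 2, 9 without IVC replicate 1 and 11 without IVC replicate 2. Higd1a, Fdps and Srebf2 kept the call in all 4 fits with 1 library fewer; the highest adjusted p of the others named was 0.606 without 1 E6.5 library. With library totals alone, no call was made for Bnip3.

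Several metal and redox defence genes rose in IVC epiblast. Of 16 metallothionein and antioxidant genes 7 rose and 1 fell, with a median of 1.16. Mt1, which binds zinc and copper, had 239 and 253 CPM in IVC epiblast, against 12.8 and 17.6 CPM in E6.5 epiblast (4.64 ± 0.36, adjusted p = 0.00824), and Mt2 had 84.1 and 84.9 CPM in IVC epiblast, against 2.87 and 3.96 CPM in E6.5 epiblast (5.25 ± 0.62, adjusted p = 0.019). Sod1, the cytosolic superoxide dismutase, had 1455 and 1392 CPM in IVC epiblast, against 147 and 96.98 CPM in E6.5 epiblast (4.18 ± 0.26), and Prdx1, a peroxiredoxin, had 3906 and 3767 CPM in IVC epiblast, against 608 and 715 CPM in E6.5 epiblast (3.17 ± 0.15). Gpx1 (3.54 ± 0.35), Txn1 (2.72 ± 0.29) and Gpx4 (2.68 ± 0.39) rose too, and Txnrd1, the reductase of thioredoxin, fell with 144 to 153 CPM in IVC epiblast, against 575 to 618 CPM in E6.5 epiblast (-1.37 ± 0.19). Hmox1, a heme-degrading enzyme and a target of Nrf2, overlapped with 5.67 to 63.3 CPM in IVC epiblast, against 62.6 to 144 CPM in E6.5 epiblast, and Slc30a1, a zinc exporter that the metal sensor Mtf1 also switches on, had 9.74 to 17.99 CPM in IVC epiblast, against 30.8 to 46.97 CPM in E6.5 epiblast; neither passed. Higher genes of the list numbered 5 without E6.5 replicate 1, 5 without E6.5 replicate 2, 8 without IVC replicate 1 and 8 without IVC replicate 2. Mt1, Sod1, Prdx1, Gpx1 and Txn1 held with any 1 of the 4 libraries left out; the highest adjusted p of the others named was 0.277 without 1 E6.5 library.

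The Mt1 promoter is shown because metallothionein genes carry metal response elements that Mtf1 binds when zinc is high. The run is from RefSeq (GRCm38.p6), chr8:94178839-94179138 on the plus strand, 5′ to 3′, and capitals mark the core letters TGCNCNC on either strand.
Mt1: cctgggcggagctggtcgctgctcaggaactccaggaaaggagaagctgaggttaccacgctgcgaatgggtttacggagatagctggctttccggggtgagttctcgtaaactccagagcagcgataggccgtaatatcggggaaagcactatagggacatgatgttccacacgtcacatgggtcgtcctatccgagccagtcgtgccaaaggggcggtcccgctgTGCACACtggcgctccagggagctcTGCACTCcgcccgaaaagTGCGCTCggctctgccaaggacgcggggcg
It held 3 matches. Of all 32851 promoters 51% held at least 1, so holding a match does not set Mt1 apart. The share of promoters with as many as 3 was not counted.

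Most ribosomal protein genes rose in IVC epiblast. Of 76 cytosolic ribosomal protein genes 66 rose and none fell, with a median of 2.44, and 59 were higher in all 4 fits with 1 library left out. With library totals alone 63 rose and 1, Rpl3, fell. They summed to 119706 and 130593 CPM in IVC epiblast, against 37968 and 40923 CPM in E6.5 epiblast, or 11.97% and 13.06% of gene counts in IVC epiblast, against 3.80% and 4.09% in E6.5 epiblast. Rpl19 had 2754 to 2839 CPM in IVC epiblast, against 314 to 318 CPM in E6.5 epiblast (3.78 ± 0.12, adjusted p = 0.00472). Not all shared in it: Rpl3, of the large subunit, had 630.0 to 719.7 CPM in IVC epiblast, against 1429.9 to 1482 CPM in E6.5 epiblast (-0.48 ± 0.13), and Rpl10 had 715 to 729 CPM in IVC epiblast, against 740.2 to 794 CPM in E6.5 epiblast, whose call (0.55 ± 0.13) turned to -0.09 with library totals alone. These genes have many processed pseudogenes, so read assignment to each is uncertain. Other abundant translation genes went the other way. Eef2, which moves the ribosome along, had 164 and 214 CPM in IVC epiblast, against 4461 and 4331 CPM in E6.5 epiblast, and fell (-3.91 ± 0.18, adjusted p = 0.00474), Eef1a1, the most abundant gene of E6.5 epiblast, had 2766 and 2586 CPM in IVC epiblast, against 8658 and 9061 CPM in E6.5 epiblast, and fell (-1.10 ± 0.10), and Pabpc1, the poly(A) binding protein, fell with 945 and 1273 CPM in IVC epiblast, against 3752 and 3369.7 CPM in E6.5 epiblast (-1.05 ± 0.18). Rpl19, Eef2 and Eef1a1 passed in each fit with 1 library left out; the highest adjusted p of the others named was 0.584 without 1 E6.5 library. The call was lost with library totals alone for Rpl10. Conversely, Rpl3 passed as lower under that scaling.

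**Figure D3:**
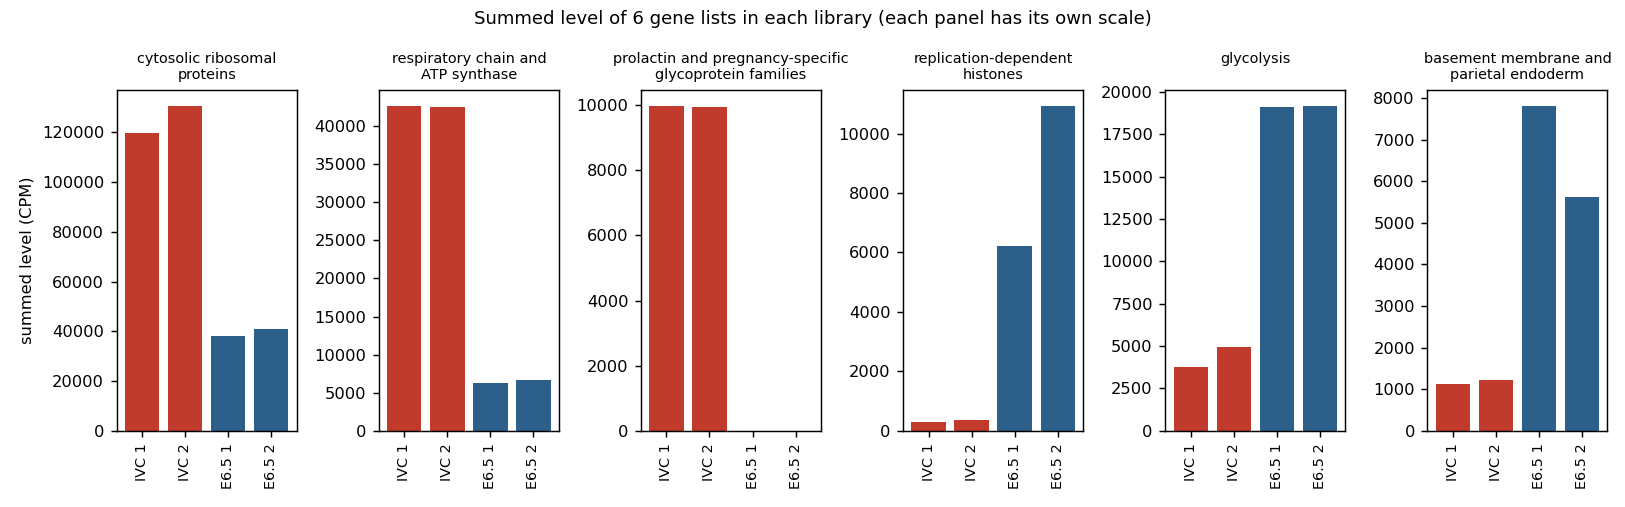
Summed level of 6 gene lists in CPM, 1 bar a library, IVC left of E6.5 in each panel and a scale of its own in each. Ribosomal protein, respiratory chain and placental hormone sums are higher in both IVC libraries, and histone, glycolysis and basement membrane sums are higher in both E6.5 libraries.

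Replication-dependent histone genes, whose mRNAs end in a stem-loop in place of a poly(A) tail, were nearly missing from IVC epiblast. Of 57 tested none rose and 40 fell, with a median of -8.76, and 28 of the 40 had no count in either IVC library. The list summed to 283 and 360.2 CPM in IVC epiblast, against 6227 and 10932 CPM in E6.5 epiblast. Hist1h3e had no count in IVC epiblast, against 373 and 527 CPM in E6.5 epiblast, and was at least 3277-fold lower, the linker histone Hist1h1a had no count in IVC epiblast, against 252 and 534 CPM in E6.5 epiblast, and was at least 3047-fold lower, and Hist1h2bg had no count in IVC epiblast, against 221 and 301 CPM in E6.5 epiblast, and was at least 1893-fold lower. Hist1h4i and Hist1h2ag overlapped between the groups at 21.3 to 57.8 and 29.6 to 41.8 CPM in IVC epiblast, against 50.2 to 52.4 and 27.3 to 75.6 CPM in E6.5 epiblast. H2afz, a histone variant with a polyadenylated mRNA, rose with 5761 and 6166 CPM in IVC epiblast, against 589 and 620.0 CPM in E6.5 epiblast (3.93 ± 0.11, adjusted p = 0.00472). Rn45s, which is not polyadenylated, differed in the same direction as these histones, and its part in them was not tested. Many of the genes are near-identical in sequence, so the level of a single one is uncertain. Lower histone genes numbered 15 without E6.5 replicate 1, 3 without E6.5 replicate 2, 51 without IVC replicate 1 and 50 without IVC replicate 2. Hist1h3e, Hist1h1a, Hist1h2bg and H2afz also passed whichever library was left out.

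Hist1h3e, the histone gene with the lowest fold change, is listed in RefSeq as H3c6, and its promoter is shown because these genes are known for CCAAT boxes. It is chr13:23562336-23562635 on the minus strand (GRCm38.p6), 5′ to 3′, with CCAAT on either strand in capitals.
Hist1h3e: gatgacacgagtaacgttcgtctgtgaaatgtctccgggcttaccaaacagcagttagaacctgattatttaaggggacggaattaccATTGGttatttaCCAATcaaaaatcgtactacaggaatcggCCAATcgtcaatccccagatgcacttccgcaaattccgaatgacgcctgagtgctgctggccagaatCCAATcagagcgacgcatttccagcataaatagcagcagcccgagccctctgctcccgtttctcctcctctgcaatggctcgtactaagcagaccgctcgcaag
It held 4 matches, and 37.4% of the 32851 promoters held at least 1.

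Cell cycle genes moved both ways. Of 32 cell cycle genes 6 rose and 9 fell, with a median of -0.61. Cdk1, the mitotic kinase, had 327 to 348 CPM in IVC epiblast, against 103 to 105 CPM in E6.5 epiblast, and rose (2.32 ± 0.20, adjusted p = 0.0104), and Cdk4 rose with 729 to 869 CPM in IVC epiblast, against 391 to 437 CPM in E6.5 epiblast (1.58 ± 0.18). Cdkn1a, the inhibitor p21, rose with 151 and 169.8 CPM in IVC epiblast, against 55.8 and 19.1 CPM in E6.5 epiblast (2.75 ± 0.64). The replicative helicase fell: Mcm7 had 61.7 and 61.5 CPM in IVC epiblast, against 684 and 746 CPM in E6.5 epiblast (-2.91 ± 0.20, adjusted p = 0.00689), and Mcm2 (-2.63 ± 0.52), Mcm4 (-1.004 ± 0.18), Mcm5 (-2.42 ± 0.51) and Mcm6 (-1.01 ± 0.18) were lower too. Mki67 had 30.96 to 164 CPM in IVC epiblast, against 806 to 861 CPM in E6.5 epiblast, and Pcna had 227 to 318 CPM in IVC epiblast, against 466 to 538 CPM in E6.5 epiblast, without passing. Espl1, the separase that parts sister chromatids, was at least 1763-fold lower with no count in IVC epiblast, against 288 and 242 CPM in E6.5 epiblast. Of 18 p53 targets and apoptosis genes 2 rose and 2 fell. Bax, which opens the mitochondrial outer membrane, had 514 and 582 CPM in IVC epiblast, against 92.7 and 68.2 CPM in E6.5 epiblast, and rose (3.40 ± 0.24, adjusted p = 0.00713), while Trp53 itself fell with 32.99 and 34.2 CPM in IVC epiblast, against 221 and 215 CPM in E6.5 epiblast (-2.06 ± 0.32). Lower cell cycle genes numbered 1 without E6.5 replicate 1, 1 without E6.5 replicate 2, 16 without IVC replicate 1 and 18 without IVC replicate 2, and higher ones 1 without E6.5 replicate 1, 2 without E6.5 replicate 2, 10 without IVC replicate 1 and 11 without IVC replicate 2. Cdk1, Mcm7, Espl1 and Bax kept the call in all 4 fits with 1 library fewer; the highest adjusted p of the others named was 0.434 without 1 E6.5 library. Scaled by library totals alone, the test did not call Cdkn1a.

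Of 18 Hippo pathway genes none rose and 5 fell, which is 27.8% beside 23.8% of all genes tested, with a median of -2.73. Yap1, the co-activator that the pathway restrains, had no count in IVC epiblast, against 413 and 434 CPM in E6.5 epiblast, and was at least 2931-fold lower. Its relative Wwtr1 had 0 to 1.16 CPM in IVC epiblast, against 33.6 to 36.6 CPM in E6.5 epiblast, and did not pass. Cyr61, a target of Yap1 and Tead factors, fell with 19.7 and 41.4 CPM in IVC epiblast, against 632 and 312 CPM in E6.5 epiblast (-3.31 ± 0.59), and Ctgf, another, had 10.9 to 22.5 CPM in IVC epiblast, against 96.1 to 246 CPM in E6.5 epiblast (-2.71 ± 0.75, adjusted p = 0.0606). Amot and Amotl2, which hold Yap1 at junctions, fell as well (-3.01 ± 0.38 and -2.53 ± 0.40). In the actin list Actb, the most abundant gene of IVC epiblast, had 16707 and 10208 CPM in IVC epiblast, against 3661 and 3368 CPM in E6.5 epiblast, and rose (2.57 ± 0.29, adjusted p = 0.0173), while its sister Actg1 had 544 and 531 CPM in IVC epiblast, against 2206 and 2317 CPM in E6.5 epiblast, and fell (-1.44 ± 0.12, adjusted p = 0.0103). Flna, the filamin that crosslinks actin, fell with 15.9 and 36.95 CPM in IVC epiblast, against 1256 and 1008 CPM in E6.5 epiblast (-4.79 ± 0.53). Lower Hippo pathway genes numbered 1 without E6.5 replicate 1, 2 without E6.5 replicate 2, 17 without IVC replicate 1 and 15 without IVC replicate 2. Yap1, Actb, Actg1 and Flna held with any 1 of the 4 libraries left out; the highest adjusted p of the others named was 0.315 without 1 E6.5 library. Under library totals alone Ctgf also passed as lower.

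Stress and handling genes were mixed. Of 14 heat shock genes 2 rose and 6 fell. Hspe1, the mitochondrial co-chaperonin, had 2670.3 and 2903 CPM in IVC epiblast, against 152 and 173 CPM in E6.5 epiblast, and rose (4.73 ± 0.16, adjusted p = 0.00472), but its partner Hspd1 had 666 to 689 CPM in IVC epiblast, against 1236 to 1245 CPM in E6.5 epiblast, and did not pass. Hspa8, the constitutive Hsp70, fell with 1024 and 774 CPM in IVC epiblast, against 4752 and 4101 CPM in E6.5 epiblast (-1.66 ± 0.19, adjusted p = 0.0186), and Hsp90ab1 fell with 2158 and 1813 CPM in IVC epiblast, against 6234 and 5473 CPM in E6.5 epiblast (-0.92 ± 0.14). Hsp90aa1 passed the test as higher (0.74 ± 0.10) although its groups overlapped in CPM, with 3918 and 3980.4 CPM in IVC epiblast, against 3924 and 3406 CPM in E6.5 epiblast. The inducible pair Hspa1a and Hspa1b, near-identical copies, had no count in IVC epiblast, against 28.9 to 273 and 41.3 to 532 CPM in E6.5 epiblast, where replicate 1 was far above replicate 2. Of 18 immediate early genes none rose and 7 fell, with a median of -4.59. Egr1 had 30.2 and 25.3 CPM in IVC epiblast, against 436 and 292 CPM in E6.5 epiblast (-3.07 ± 0.35) and Jun had 44.8 to 50.7 CPM in IVC epiblast, against 363 to 577 CPM in E6.5 epiblast (-2.66 ± 0.32), and Nr4a1 was at least 276-fold lower. Fos had 0.193 to 13.1 CPM in IVC epiblast, against 203 to 288 CPM in E6.5 epiblast, and did not pass. Among 22 integrated stress genes 3 rose and 1 fell. Nupr1 had 15.3 and 15.7 CPM in IVC epiblast, against no count in E6.5 epiblast, at least 141-fold higher, Asns, asparagine synthetase, rose with 156 and 262 CPM in IVC epiblast, against 100.4 and 113 CPM in E6.5 epiblast (1.60 ± 0.37), and Slc7a5, an amino acid transporter, fell with 17.7 and 22.3 CPM in IVC epiblast, against 302 and 304 CPM in E6.5 epiblast (-3.29 ± 0.32), while the driver Atf4 had 174 to 188 CPM in IVC epiblast, against 306 to 317 CPM in E6.5 epiblast, and Ddit3 had 1.93 to 10.1 CPM in IVC epiblast, against 5.85 to 14.5 CPM in E6.5 epiblast. Lower immediate early genes numbered 0 without E6.5 replicate 1, 2 without E6.5 replicate 2, 15 without IVC replicate 1 and 15 without IVC replicate 2, and lower heat shock genes 1 without E6.5 replicate 1, 3 without E6.5 replicate 2, 9 without IVC replicate 1 and 9 without IVC replicate 2. Hspe1 and Hspa8 passed in each fit with 1 library left out; the highest adjusted p of the others named was 0.606 without 1 E6.5 library. Library totals alone ended the call of Hsp90aa1 and Asns. Conversely, Hspd1 and Atf4 passed as lower under that scaling.

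Smaller lists gave single genes. The retinoic acid binding protein Crabp2 had 207 and 107 CPM in IVC epiblast, against 18.3 and 13.3 CPM in E6.5 epiblast, and rose (3.95 ± 0.56), and Stra6, the receptor of Rbp4, was at least 112-fold lower; 9 genes of that pathway were tested. Of 7 tested genes of the X-linked Rhox and Xlr clusters Xlr3b rose, with 91.8 and 110.5 CPM in IVC epiblast, against 4.70 and 14.8 CPM in E6.5 epiblast (3.98 ± 0.83), as did Xlr4c, and near-identical copies make the split among Xlr genes uncertain. Of 10 interferon and antigen presentation genes Psmb9 and Bst2 rose, Bst2 with 69.2 and 52.2 CPM in IVC epiblast, against 15.4 and 8.08 CPM in E6.5 epiblast (3.02 ± 0.70), and among those that fell were Irf1 and Tap1, both without a count in IVC epiblast. No gene of the 2-cell burst list, which includes Zscan4 and Usp17l genes, was abundant enough to test. In none of these genes did the call hold in all 4 such fits, and the highest adjusted p was 0.606 without 1 E6.5 library. With library totals alone, no call was made for Bst2.

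**Figure D4:**
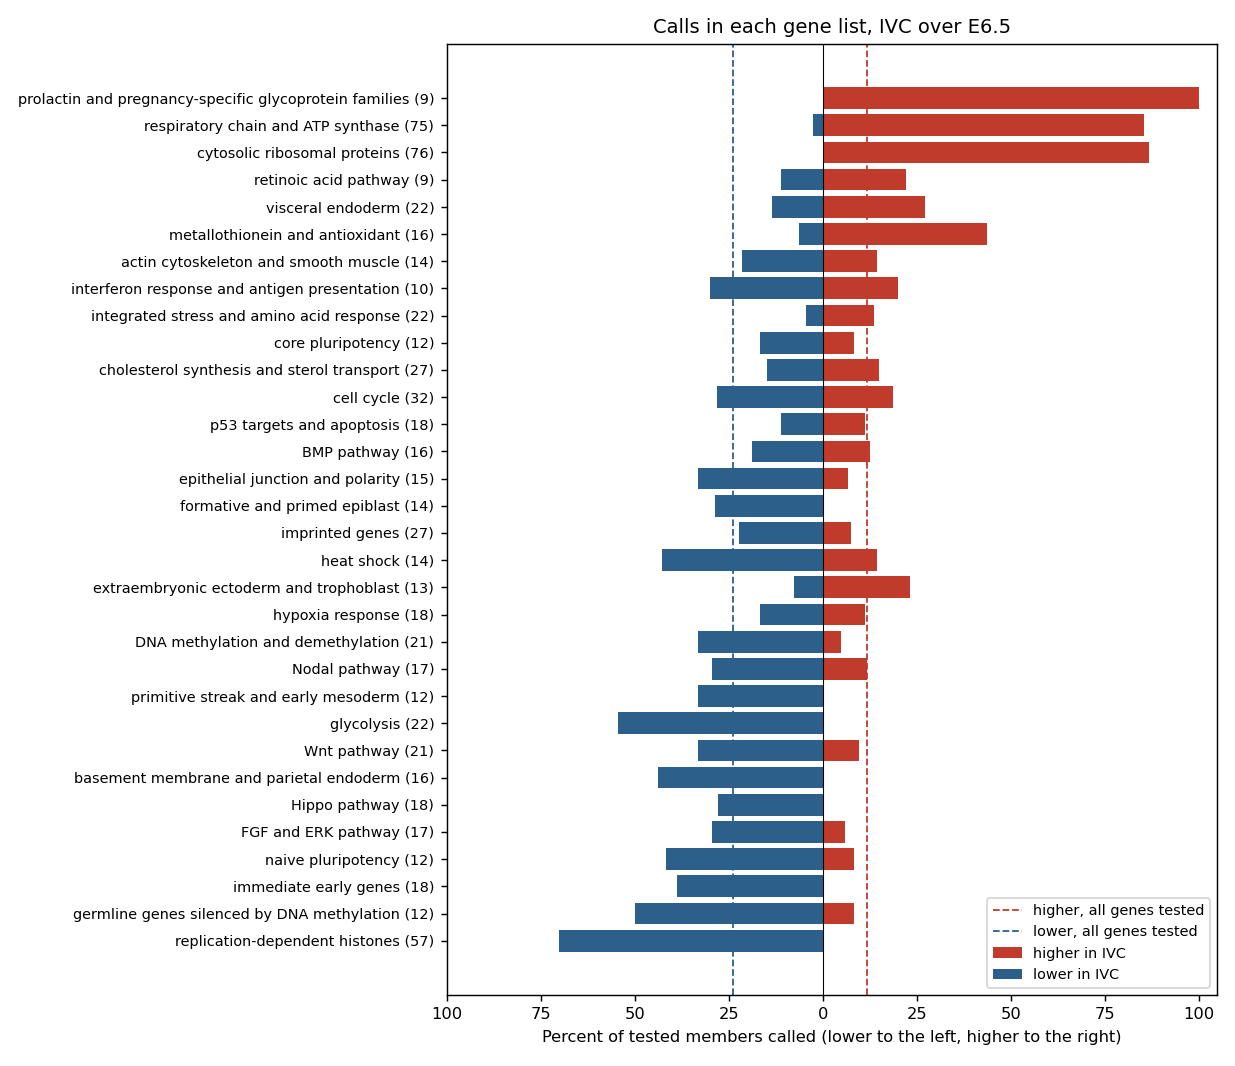
Percent of the tested members of each list called higher (right) or lower (left) in IVC epiblast, with the number tested in parentheses and lists ordered by median fold change. Dashed lines mark the 11.6% and 23.8% of all genes tested. Placental hormone, ribosomal protein and respiratory chain lists lie far beyond the right line, and histone, germline and glycolysis lists beyond the left one. Bars describe tested members only. The 9 of 39 placental hormone genes tested passed the filter on low counts through IVC epiblast. In E6.5 epiblast alone, 7 of 12 germline and 28 of 57 histone members passed it.

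Beyond the lists, the genes with the highest and lowest fold changes were mostly present in 1 group and at 0 in the other. Among the 15 highest at 10 CPM or more, predicted genes left out, were Lgals2, a galectin, with 167 and 121 CPM in IVC epiblast, against no count in E6.5 epiblast, at least 1304-fold higher, and Cystm1, a small membrane protein, with 186 and 158 CPM in IVC epiblast, against 0 and 0.0542 CPM in E6.5 epiblast (12.44 ± 0.86). Fabp1, a fatty acid binding protein of gut and liver, was at least 495-fold higher, Gc, the vitamin D carrier made by endoderm and liver, at least 215-fold, the collagenase gene Mmp1a at least 223-fold, and S100a6 at least 269-fold. Pfpl and B9d2, which encode a pore-forming-like protein and a part of the ciliary base, had no count in E6.5 epiblast either. The 15 lowest, besides histones, Yap1, Srebf2, Espl1 and Hspa1b, held Carm1, an arginine methyltransferase active in the early embryo, with no count in IVC epiblast, against 329.6 and 322 CPM in E6.5 epiblast, at least 2229-fold lower, Plxnb2, a semaphorin receptor, at least 1657-fold, and Inppl1, a phosphoinositide phosphatase, at least 1412-fold lower. Among the 10 most abundant genes of IVC epiblast, Calm2, a calmodulin gene, had 6689.7 and 7119 CPM in IVC epiblast, against 325 and 383 CPM in E6.5 epiblast (4.91 ± 0.16, adjusted p = 0.00472), Ubb, a polyubiquitin gene, 7107 and 6866 CPM in IVC epiblast, against 658 and 603 CPM in E6.5 epiblast (4.10 ± 0.10), Set, a histone chaperone, 11870.0 and 8144 CPM in IVC epiblast, against 2148 and 1981 CPM in E6.5 epiblast (2.91 ± 0.23), and Ftl1, the ferritin light chain, 4916 and 6396 CPM in IVC epiblast, against 1072 and 960.1 CPM in E6.5 epiblast (3.11 ± 0.16); all rose. Only Actb was among the 10 most abundant genes of both groups. Lgals2, Cystm1, Yap1, Srebf2, Espl1, Carm1, Plxnb2, Inppl1, Calm2, Ubb, Set, Ftl1 and Actb kept the call in all 4 fits with 1 library fewer; the highest adjusted p of the others named was 0.565 without 1 E6.5 library.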

How the data were processed

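RNA-seq was compared between 2 IVC and 2 E6.5 epiblast libraries. The authors deposited a table of raw counts per gene symbol for each group. Per the submitters' processing notes the tools used in the series include STAR 2.6.0a, HTSeq 0.10.0, featureCounts 2.0.1 and Trim Galore 0.6.6 and the build mm9, without saying which made these tables; strand, pooling and molecular identifiers are not given in the sources used here. The tables were joined on gene symbol (24445 genes), and the ERCC spike-in rows, all at 0, and Rn45s were left out of totals. Gene totals ran from 8722429 to 18436489.

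Counts were tested with edgeR 4.0.16 in R 4.3.3 (filterByExpr, TMM, glmQLFit and glmQLFTest, two-sided, Benjamini-Hochberg adjusted p under 0.05 over 11677 genes). With 2 libraries against 2 an exact permutation test cannot go below 0.333. Data were also simulated for 11677 genes, from the mean of each gene over all 4 libraries and a gene-wise spread shared by both groups. On these data the test recovered 2%, 18%, 48% and 42% of genes changed 4-, 16-, 64- and 256-fold. Of its 58 calls 3 were false. The simulation held no noisier IVC pair, so it does not give the share of false calls in the real comparison. CPM values use gene totals without scaling. Bounds for genes at 0 use 3 counts over the group and gene totals without scaling.

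Gene lists (41) and cell type markers follow roles known from the literature; members, lists and tests were chosen with earlier results of these data known, so counts in a list are read beside those over all genes and no list was tested. Genes named are the 15 highest and lowest fold changes at 10 CPM or more without overlap, the 10 most abundant genes of each group, and list members, with values of each library for the markers and for the 6 called members of a list with the largest change; other members were named for their role, with ranges, and some genes the rule would name are not reported here. Promoters came from RefSeq (GRCm38.p6), where 4 of 4 genes looked up were found. Alternatives were DESeq2 1.42.0 as test and as size factors, library totals alone, Rn45s kept, thinning, 3 other filters, a replicate block and leaving out each library.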

Additional observations from a re-analysis of the deposited data

How the results depend on the processing

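The count of higher genes (1360) stayed within 1.5 times under DESeq2 (1892), DESeq2's size factors (1299), library totals alone (1030), Rn45s kept (1389), thinning to the lowest total (1371) and each of 3 other filters (964 to 1325). The count of lower genes (2784) did so under the first 5 of these (2717 to 3259). It was 1681 at a mean of 10 CPM or more in either group and 624 with no filter. Among genes with a count in all 4 libraries, a filter chosen after seeing the data, it was 777. The stricter filters leave out genes at low or zero counts, and the cause of the drop with no filter was not tested. A similar count did not mean the same genes. DESeq2 kept the call of 1352 of the 1360 higher genes but of 1971 of the 2784 lower genes. With 1 library left out, higher genes ranged from 607 to 2759 and lower genes from 115 to 5668; the lone library of a group is assumed to vary like the other pair. Whether replicate numbers pair the samples is not stated. The correlation of deviations between same-numbered libraries was -0.00256 over 13743 genes, which cannot settle it with 2 libraries a group. With the number as a block 928 genes were higher and 473 lower. Of 186 named genes that were called, 185 kept the call with thinning, 185 with DESeq2's size factors, 171 with DESeq2, 170 with library totals alone, under which 9 others gained one, 115 with no filter and 108 with the block, and without 1 library 67 to 178 did. Rpl10 was the named call that changed sign, to -0.0891 with library totals alone. At an unadjusted p under 0.05, 5316 genes passed. Depth limits what a zero can show: 3 counts in a library of 10228982 are 0.293 CPM, a floor for counting error only, and 1251 tested genes at 10 CPM or more in 1 IVC library were at 0 in the other.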
